A study of Mus musculus with 24 samples.

Results

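The comparison is between livers of mice that had inhaled vinyl chloride (VC) while on a Western diet and livers of mice on the same diet that had breathed air, both taken 9 months after the exposure had ended. Its members are the 3 libraries labelled m12_WD+VC and the 3 labelled m12_WD, 6 of the 24 libraries in the series, chosen by their labels alone. All mice were male C57Bl/6J. The m12_WD+VC mice ate a diet with 42% fat for 12 months and were exposed for the 12 weeks of the inhalation period to VC at about 0.85 ± 0.1 ppm, with 6 hours of exposure on each of 5 days a week. The m12_WD mice ate the same diet for the same time and had air in the inhalation chambers. A control diet with 13% fat was given to the m12_CD+VC and m12_CD mice, and 4 further groups (w12_WD+VC, w12_WD, w12_CD+VC and w12_CD) were taken at the end of the 12 weeks. Every group has 3 libraries, and all mice were fasted for 4 hours before the livers were taken. Whether each library is from a separate animal is not in the labels, and the p-values therefore measure only how far these libraries spread, which may be technical. The study's title names a latent effect of VC that the diet brings out, and this comparison asks which liver transcripts still differed 9 months after a low, transient exposure.

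Vinyl chloride is a gas used to make PVC plastic and a known cause of liver cancer in exposed workers. In the liver CYP2E1 oxidises it to chloroethylene oxide and chloroacetaldehyde, which form etheno adducts on DNA bases and are cleared through glutathione and aldehyde dehydrogenases. A Western diet loads hepatocytes with fat, and fatty acid oxidation, lipoprotein export and cholesterol synthesis are the pathways by which hepatocytes handle that load.

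RNA was depleted of ribosomal RNA and sequenced, and the deposited table gives whole read counts for 24421 entries, each a gene symbol. The libraries were shallow. The m12_WD+VC libraries held 141457, 640952 and 389700 counts, and the m12_WD libraries held 540432, 407177 and 962493. A library in which an entry had 0 counts allows up to 3 counts, which is 4.68 to 21.2 CPM (counts scaled to a library total of 1e6) in m12_WD+VC and 3.12 to 7.37 CPM in m12_WD. Such limits, and the 95% intervals given below for ratios, cover counting error only. Libraries of 1 group differed by more than counting error, and their chi-square per degree of freedom was 2.42 to 3.32 in m12_WD+VC and 5.83 to 10.4 in m12_WD, and 0 pairs were identical. The third m12_WD library stood apart: it was the deepest of the 6 but had counts in 8506 entries, against 10763 and 10316 in the other m12_WD libraries. The first m12_WD+VC library was the shallowest, with counts in 7861 entries. The calls, and the main lists whose counts moved by over 1.5 times without either library, are given also without it. Albumin (Alb), the defining plasma protein of hepatocytes, was present in every library, with 2411, 3297 and 1876 CPM in m12_WD+VC and 7278, 6985 and 2495 CPM in m12_WD.

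Between m12_WD+VC and m12_WD, 24 of the 4198 tested entries passed an adjusted p of 0.05, which is 0.572% of them. Of these, 23 rose in m12_WD+VC (0.548%) and 1 fell (0.0238%). Adjusted p-values are from edgeR's quasi-likelihood test fitted to all 24 libraries, with Benjamini-Hochberg adjustment over the 4198 entries. At an unadjusted p under 0.05, 260 entries were higher (6.19%) and 203 lower (4.84%), and the median log2 fold change of all tested entries was -0.04. In all 24 the CPM of the groups did not overlap, while the groups did not overlap in 18.0% of tested entries. The entries that rose include genes for chromatin regulation, cell adhesion and signalling, and 10 RNAs annotated as antisense, long intergenic or processed transcripts. The entry that fell is Pigr, the receptor that carries polymeric immunoglobulins across epithelia.

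**Figure D1:**
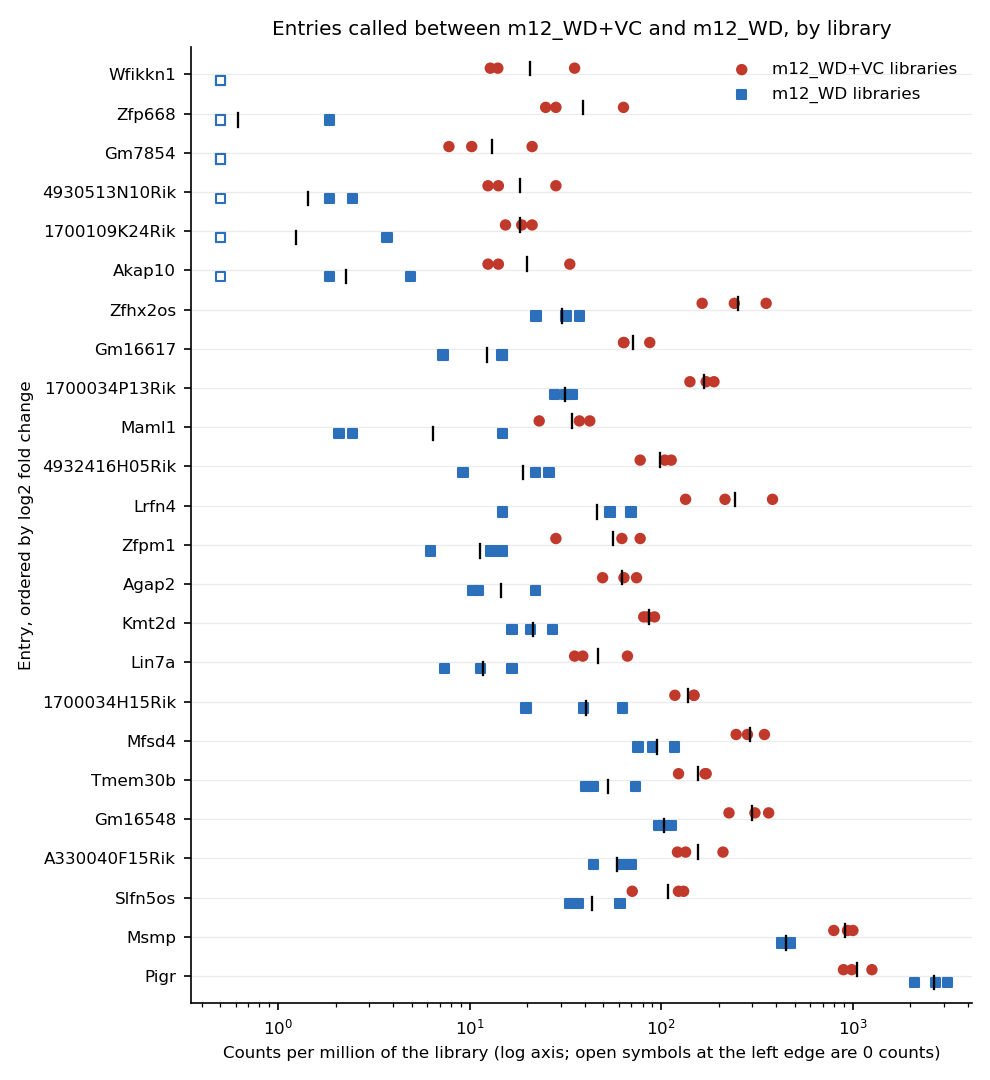
CPM (log axis) of the 24 called entries in each m12_WD+VC library (circles) and each m12_WD library (squares), with the group mean as a black bar and open symbols for 0 counts. In each of the 24 entries the circles and squares occupy separate ranges, with the circles to the right in all but Pigr.

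Kmt2d encodes a methyltransferase of histone H3 lysine 4 that acts at enhancers. It lies on chr15:98831669-98871204, minus strand (GRCm38), and its exons overlap no gene on the other strand. Kmt2d had 84.8, 81.1 and 92.4 CPM in m12_WD+VC and 16.6, 27.0 and 20.8 CPM in m12_WD. The exposed libraries lay close together and all above the highest m12_WD library. The log2 fold change was 2.05 (SE 0.39, adjusted p = 0.00343), and with any 1 of the 6 libraries left out the adjusted p stayed between 0.00967 and 0.0349.

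Lrfn4 encodes a leucine-rich repeat adhesion protein known from synapses. It lies on chr19:4611785-4615667, minus strand, also with no overlap. Lrfn4 had 382, 134 and 216 CPM in m12_WD+VC and 14.8, 54.0 and 69.6 CPM in m12_WD. The spread was wide in both groups, and the lowest exposed library was still above the highest m12_WD library. The log2 fold change was 2.36 (SE 0.42, adjusted p = 0.00145; 0.000347 to 0.0294 with 1 library left out).

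Mfsd4 encodes a membrane transporter of the major facilitator family. It lies on chr1:132022806-132068062, minus strand, and shares 84 exonic bases with Elk4, which had 1 count in all m12_WD+VC libraries and 0 in m12_WD. Mfsd4 had 346, 246 and 282 CPM in m12_WD+VC and 75.9, 118 and 90.4 CPM in m12_WD. Its groups were well apart. The log2 fold change was 1.67 (SE 0.29, adjusted p = 0.00133; 0.00212 to 0.0235 with 1 library left out).

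Pigr is the one called entry that was lower. It lies on chr1:130826684-130852249, plus strand, with no overlap, and in the liver its product moves IgA towards bile. Pigr had 990, 1261 and 896 CPM in m12_WD+VC and 2700, 2107 and 3131 CPM in m12_WD. The means were 1049 ± 190 CPM in m12_WD+VC and 2646 ± 514 CPM in m12_WD (SD, n = 3 each), and the ranges were far apart. The log2 fold change was -1.30 (SE 0.30, adjusted p = 0.026), but the call was kept in 1 of the 6 fits that leave out a library, where the adjusted p ran from 0.0199 to 0.275. In edgeR it was also lost with scaling factors from entries without an opposite-strand overlap (adjusted p = 0.3805) and with those entries fitted alone (0.3843). The same was true with no expression filter (0.0791) and with the 12-month libraries alone (0.0549). The call was kept with RLE scaling, in DESeq2 and in limma-voom.

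The bases just upstream of these 4 protein-coding genes are shown because they set the 1 gene that fell beside 3 that rose with every library left out in turn. Each run is the 250 bases before the annotated start, 5′ to 3′ on the gene's strand, from RefSeq on GRCm38.p6. Capitals mark the GC box (GGGCGG, or CCGCCC on the other strand) and the E-box CACGTG, which reads the same on both strands. The windows are chr15:98871206-98871455 for Kmt2d, chr19:4615668-4615917 for Lrfn4, chr1:132068063-132068312 for Mfsd4 (Mfsd4a in RefSeq) and chr1:130826434-130826683 for Pigr.
Kmt2d: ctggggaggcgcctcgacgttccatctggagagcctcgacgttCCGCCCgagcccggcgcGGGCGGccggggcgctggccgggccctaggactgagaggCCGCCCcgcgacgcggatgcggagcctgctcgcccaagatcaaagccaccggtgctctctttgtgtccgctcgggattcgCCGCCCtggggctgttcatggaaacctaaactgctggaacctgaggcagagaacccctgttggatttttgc
Lrfn4: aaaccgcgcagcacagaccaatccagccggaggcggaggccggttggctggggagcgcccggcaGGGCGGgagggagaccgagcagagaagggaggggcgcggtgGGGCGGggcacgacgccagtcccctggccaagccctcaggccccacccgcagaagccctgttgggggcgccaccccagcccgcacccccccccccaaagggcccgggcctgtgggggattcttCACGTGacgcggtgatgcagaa
Mfsd4: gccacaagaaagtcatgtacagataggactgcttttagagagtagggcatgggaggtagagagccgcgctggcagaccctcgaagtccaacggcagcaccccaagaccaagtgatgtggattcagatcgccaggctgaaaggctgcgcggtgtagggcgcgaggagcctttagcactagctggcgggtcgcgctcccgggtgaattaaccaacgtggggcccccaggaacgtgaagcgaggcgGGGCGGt
Pigr: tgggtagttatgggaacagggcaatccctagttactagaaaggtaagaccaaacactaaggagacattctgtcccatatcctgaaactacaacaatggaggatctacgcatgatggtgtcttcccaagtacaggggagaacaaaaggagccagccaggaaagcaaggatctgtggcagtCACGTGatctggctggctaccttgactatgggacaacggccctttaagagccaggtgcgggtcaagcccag

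Kmt2d held 4 GC boxes, Lrfn4 held 2 and an E-box, Mfsd4 held 1 GC box, and Pigr held 0 GC boxes and 1 E-box. Of the 24 called entries, 20 have such a window, and 11 of those hold a GC box, 4 an E-box and 0 a TATA box (TATAAA, or TTTATA on the other strand). Over all 32841 windows of 250 bases in the RefSeq table, 32.7% hold a GC box, 6.02% an E-box and 12.4% a TATA box. These sets are unlike: the table also covers genes that were not tested here and can hold several windows of a gene, while 1 window was taken for each called entry. The shares among all tested entries were not counted, so the rates give no comparison. A match describes these letters only.

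The protein-coding genes with the lowest counts among the calls were near absent from the m12_WD libraries. Zfp668, a C2H2 zinc-finger protein on chr7:127863047-127876828, minus strand, had 9, 16 and 11 counts in m12_WD+VC and 1, 0 and 0 in m12_WD. The ratio of the summed counts per total was 58.7 (95% interval 9.88 to 2381), with an adjusted p of 7.56e-05. Zfp668 shares 608 exonic bases with Zfp646 on the other strand, whose level was 14.1, 39.0 and 56.5 CPM in m12_WD+VC and 22.2, 14.7 and 48.8 CPM in m12_WD (log2 fold change 0.43, adjusted p = 0.772). With the counts of the pair summed, the log2 fold change of the locus was 0.06 (adjusted p = 0.975). Wfikkn1, a secreted protein that binds myostatin, had 5, 9 and 5 counts in m12_WD+VC and 0 in every m12_WD library. The 95% interval of its ratio began at 7.6 (adjusted p = 0.0143). Akap10, which anchors protein kinase A, had 2, 8 and 13 counts in m12_WD+VC and 1, 2 and 0 in m12_WD, a ratio of 12.5 (95% interval 3.78 to 65.0, adjusted p = 0.0229).

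The other protein-coding calls act in signalling, transcription, polarity and membranes or are secreted. Agap2, a GTPase that binds phosphoinositide 3-kinase, had 49.5, 64.0 and 74.4 CPM in m12_WD+VC and 11.1, 22.1 and 10.4 CPM in m12_WD (log2 fold change 2.25, SE 0.44, adjusted p = 0.00537). Zfpm1, a cofactor of GATA transcription factors, had 77.8, 62.4 and 28.2 CPM in m12_WD+VC and 12.9, 14.7 and 6.23 CPM in m12_WD (log2 fold change 2.34, SE 0.53, adjusted p = 0.026). Maml1, the coactivator of Notch, had 42.4, 37.4 and 23.1 CPM in m12_WD+VC and 14.8, 2.46 and 2.08 CPM in m12_WD (log2 fold change 2.41, SE 0.55, adjusted p = 0.026). In these 3 genes every exposed library was above every m12_WD library, with the narrowest gap in Maml1.

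Lin7a, a polarity scaffold with a PDZ domain, had 35.4, 39.0 and 66.7 CPM in m12_WD+VC and 16.6, 7.37 and 11.4 CPM in m12_WD (log2 fold change 2.02, SE 0.49, adjusted p = 0.0421). Tmem30b, a subunit of lipid flippases, had 170, 123 and 172 CPM in m12_WD+VC and 44.4, 73.7 and 40.5 CPM in m12_WD (log2 fold change 1.63, SE 0.37, adjusted p = 0.026). Msmp, a secreted microseminoprotein, had 940, 797 and 1003 CPM in m12_WD+VC and 427, 452 and 475 CPM in m12_WD (log2 fold change 1.07, SE 0.26, adjusted p = 0.0357). Msmp shares exonic bases with Rgp1 on the other strand, and with their counts summed the log2 fold change was 0.55 (adjusted p = 0.408). These calls were less stable: Lin7a, Maml1 and Msmp were each kept in 1 of the 6 fits that leave out a library, Zfpm1 and Tmem30b in 2, Akap10 in 3, Agap2 in 4 and Wfikkn1 in 5.

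The rest of the calls were non-coding or predicted entries, mostly lying across a gene on the other strand. Zfhx2os, an antisense RNA of the homeobox gene Zfhx2 on chr14:55053869-55075873, plus strand, had 354, 164 and 241 CPM in m12_WD+VC and 22.2, 31.9 and 37.4 CPM in m12_WD. The log2 fold change was 3.03 (SE 0.37, adjusted p = 7.21e-06), the smallest p of the comparison. Zfhx2 itself had 2, 7 and 3 counts in m12_WD+VC and 3, 5 and 0 in m12_WD. 1700034P13Rik, antisense to the ubiquitin protease gene Vcpip1 on chr1:9747648-9791924, plus strand, had 141, 189 and 172 CPM in m12_WD+VC and 27.8, 31.9 and 34.3 CPM in m12_WD (log2 fold change 2.46, SE 0.34, adjusted p = 3.18e-05). Vcpip1 had 0 counts in each m12_WD+VC library and 2, 0 and 0 in m12_WD. In both antisense entries the groups were far apart.

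Gm16617, antisense to Arhgef40 on chr14:51986425-51988827, minus strand, had 63.6, 64.0 and 87.2 CPM in m12_WD+VC and 14.8, 14.7 and 7.27 CPM in m12_WD (log2 fold change 2.65, SE 0.42, adjusted p = 0.0004). Arhgef40, a guanine nucleotide exchange factor, had 170, 167 and 177 CPM in m12_WD+VC and 75.9, 103 and 208 CPM in m12_WD (log2 fold change 0.43, adjusted p = 0.656). Summed, the pair had a log2 fold change of 0.76 (adjusted p = 0.333). 4932416H05Rik, which could not be placed on the annotation by its symbol, had 77.8, 104 and 113 CPM in m12_WD+VC and 9.25, 22.1 and 26 CPM in m12_WD (log2 fold change 2.39, SE 0.39, adjusted p = 0.000517). Its m12_WD libraries were all below its lowest exposed library. 1700034H15Rik, which overlaps the zinc exporter gene Slc30a1, had 148, 148 and 118 CPM in m12_WD+VC and 62.9, 39.3 and 19.7 CPM in m12_WD (log2 fold change 1.83, SE 0.40, adjusted p = 0.0228). Gm16548, which overlaps Selp and F5, had 226, 309 and 364 CPM in m12_WD+VC and 102, 113 and 97.7 CPM in m12_WD (log2 fold change 1.60, SE 0.37, adjusted p = 0.026).

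A330040F15Rik had 134, 122 and 210 CPM in m12_WD+VC and 70.3, 44.2 and 62.3 CPM in m12_WD (log2 fold change 1.44, SE 0.36, adjusted p = 0.0483). Slfn5os, antisense to the interferon-induced gene Slfn5, had 70.7, 131 and 123 CPM in m12_WD+VC and 61.1, 36.8 and 33.2 CPM in m12_WD (log2 fold change 1.40, SE 0.34, adjusted p = 0.0421). In Slfn5os the first exposed library lay just above the first m12_WD library. The last 3 had few counts. Gm7854 had 3, 5 and 4 counts in m12_WD+VC and 0 in every m12_WD library, and the 95% interval of its ratio began at 4.53 (adjusted p = 0.026). 4930513N10Rik had 2, 8 and 11 counts in m12_WD+VC and 1, 1 and 0 in m12_WD, and 1700109K24Rik had 3, 12 and 6 counts in m12_WD+VC and 2, 0 and 0 in m12_WD. Both had a ratio of 17.1 (95% interval 4.18 to 150.5), with adjusted p-values of 0.026 for 4930513N10Rik and 0.0226 for 1700109K24Rik.

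Of the 24 called entries, 13 share exonic bases with an opposite-strand gene, 10 share none and 1 was not placed. The sources used here do not give the strand setting of the counting, so reads of an overlapping pair cannot be assigned to either gene with certainty. The classes also differed over all tested entries: the median log2 fold change was 0.08 over 2119 entries with an overlap and -0.20 over 2026 without. Among 252 tested entries with an overlap that are not protein coding, the median was 0.39, and 55 were higher and 1 lower at an unadjusted p under 0.05. Entries without an overlap took 20.6 ± 2.42% of counts in m12_WD+VC and 25.8 ± 3.91% in m12_WD (SD, n = 3 each). That difference of -5.21 percentage points had p = 0.2 in an exact permutation test, two-sided, in which the smallest possible p is 0.1. The part of this difference between the classes in the calls was not tested.

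With the third m12_WD library left out, 13 entries were called, and 8 of the 24 were among them: Kmt2d, Lrfn4, Mfsd4, Zfp668, Zfhx2os, 1700034P13Rik, 4932416H05Rik and Gm16617. The same 8 were called with any 1 of the 6 libraries left out. Without the third m12_WD+VC library 10 were called, all 10 among the 24, and without the first 16 were called, 15 of them among the 24. Of the 8, all but Zfp668 and Gm16617 also stayed called under each other setting that gave them a value, while those 2 lost the call where counts of overlapping entries were summed. In that setting 17 of the 24 kept the call, and the log2 fold change was 0.06 for Zfp668, 0.55 for Msmp, 0.66 for Gm16548, 0.76 for Gm16617, 0.90 for Slfn5os, 1.46 for A330040F15Rik and 1.68 for 4930513N10Rik.

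In all 23 entries that rose, m12_WD had the lowest mean of the 4 groups at 12 months, which it did in 847 of the 4198 tested entries (20.2%). Entries that rise between these groups tend to be low in m12_WD by construction: of the 260 that were higher at an unadjusted p under 0.05, 231 had their lowest mean there. Kmt2d averaged 86.1 ± 5.73 CPM in m12_WD+VC and 21.5 ± 5.22 CPM in m12_WD, beside 147 ± 37.8 CPM in m12_CD+VC and 157 ± 26.3 CPM in m12_CD (SD, n = 3 each). Lrfn4 averaged 244 CPM in m12_WD+VC and 46.2 CPM in m12_WD, beside 170 CPM in m12_CD+VC and 154 CPM in m12_CD. Zfhx2os averaged 253 CPM in m12_WD+VC and 30.5 CPM in m12_WD, beside 364 CPM in m12_CD+VC and 240 CPM in m12_CD. In these genes the exposed Western-diet livers were nearer to both control-diet groups than the unexposed Western-diet livers were. Pigr ran the other way, with 1049 CPM in m12_WD+VC and 2646 CPM in m12_WD, beside 1038 ± 412 CPM in m12_CD+VC and 830 ± 299 CPM in m12_CD.

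**Figure D2:**
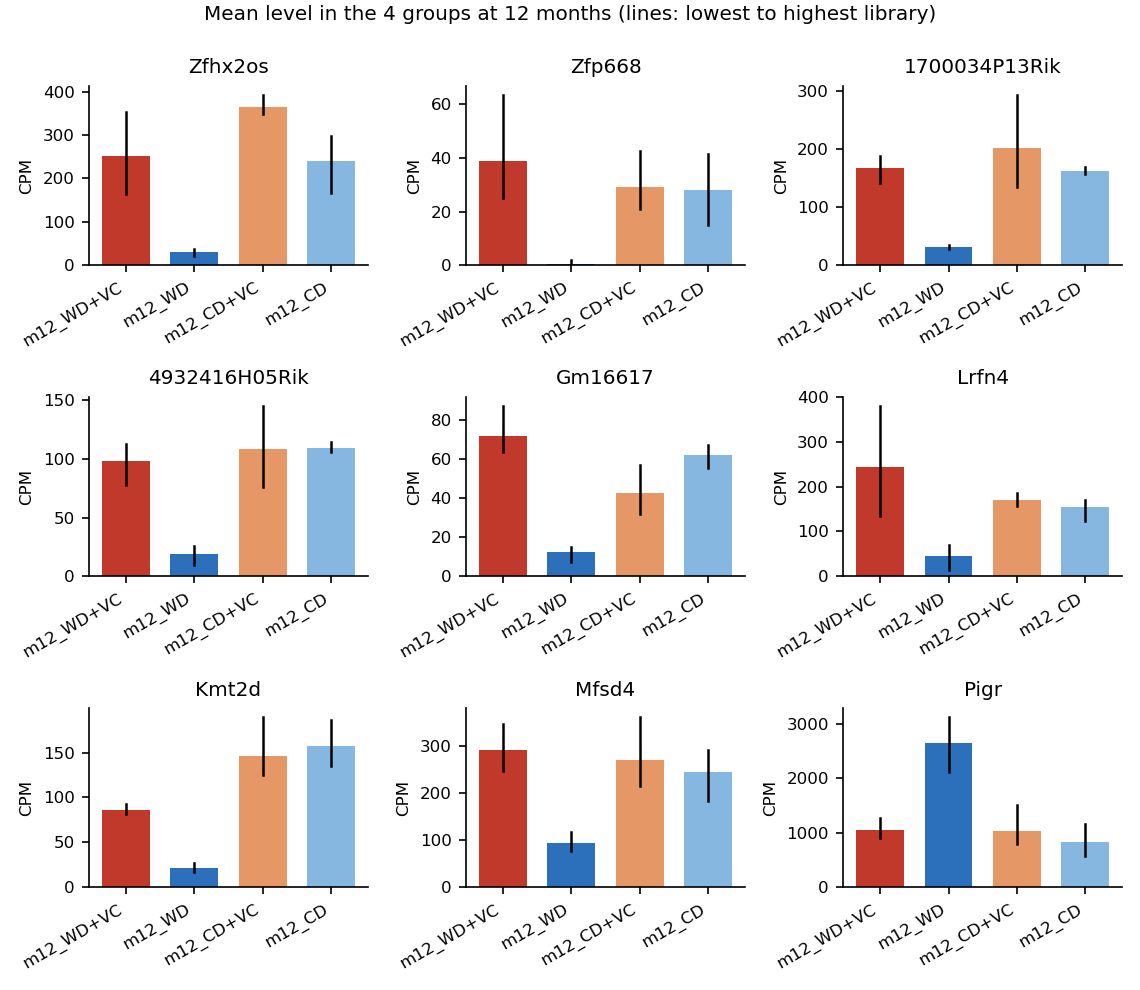
Mean CPM (bars, axis from 0) of 9 called entries in the 4 groups at 12 months, with lines running from the lowest to the highest of 3 libraries. In 8 panels the m12_WD bar is the lowest, as for Kmt2d at 21.5 CPM, and for Pigr it is the highest at 2646 CPM.

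Whether the VC effect on Western diet differed from that on control diet was tested as an interaction, and 451 entries were called (10.7%), with 208 higher (4.95%) and 243 lower (5.79%). Of the 24 called entries, 20 were called there, but the interaction uses the same 6 libraries and is no independent test of them. The entries called by smallest p included Zfp668 with a log2 difference of 5.62 (adjusted p = 0.00161), Kmt2d with 2.65 (SE 0.51, adjusted p = 0.0044), Lrfn4 with 2.66 (SE 0.58, adjusted p = 0.00753) and Mfsd4 with 1.96 (SE 0.41, adjusted p = 0.00581). On control diet alone the log2 fold changes of m12_CD+VC over m12_CD were -0.59 for Kmt2d, -0.30 for Lrfn4 and -0.29 for Mfsd4. Pigr was not called in the interaction (log2 difference -1.14, SE 0.42, adjusted p = 0.0707).

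Among the genes lower in the interaction were oxidative and structural liver genes. Ehhadh, a peroxisomal enzyme of fatty acid oxidation, averaged 45.1 ± 23.4 CPM in m12_WD+VC and 132 ± 45.9 CPM in m12_WD, against 79.5 ± 24.4 CPM in m12_CD+VC and 10.4 ± 10.3 CPM in m12_CD (SD, n = 3 each). The log2 difference between the diets was -3.88 (SE 0.73, adjusted p = 0.00395). Actb, cytoplasmic actin, averaged 113 CPM in m12_WD+VC and 242 CPM in m12_WD, against 114 CPM in m12_CD+VC and 23.1 CPM in m12_CD (log2 difference -2.81, SE 0.55, adjusted p = 0.00472). In both genes the exposed mean was below the unexposed mean on Western diet and above it on control diet. The split of calls depended on scaling: it was 39 higher and 481 lower with RLE factors, 13 and 226 in DESeq2, and 291 and 84 with factors from entries without an overlap, where the median of all entries moved by -0.60, -0.62 and 0.54 on the log2 scale. The count was 244 without the first m12_WD+VC library, 87 without the third, 266 without the first m12_WD library, 179 without the second and 627 without the third.

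Whether the VC effect on Western diet at 12 months differed from that at the end of exposure was tested likewise, and 7 entries were called, all higher (0.167%). They are Zfhx2os (log2 difference 3.33, adjusted p = 0.000662), Zfp668 (log2 difference 5.47, adjusted p = 0.00183), 1700034P13Rik (log2 difference 2.58, adjusted p = 0.00556), and 4932416H05Rik, Mfsd4, Hcn3 and Gpr108, and 5 of these are among the 24. Zfhx2os averaged 422 ± 165 CPM in w12_WD+VC (n = 3) and 527 ± 4.48 CPM in w12_WD (n = 2) at the end of exposure. Mfsd4 averaged 371 ± 44.1 CPM in w12_WD+VC (n = 3) and 481 ± 12.4 CPM in w12_WD (n = 2), with a log2 difference between the times of 1.95 (SE 0.42, adjusted p = 0.033). Hcn3, a channel gated by cyclic nucleotides, averaged 1074 ± 203 CPM in m12_WD+VC and 692 ± 69.4 CPM in m12_WD, and 745 ± 412 CPM in w12_WD+VC and 4754 ± 1010 CPM in w12_WD. Zfhx2os, Zfp668, 1700034P13Rik and Mfsd4 share exonic bases with an opposite-strand gene, and 4932416H05Rik was not placed. The overlap of Hcn3 and Gpr108 is not given here, and whether their counts hold reads of another gene was not tested. With entries without an overlap fitted alone, 0 of 2026 were called. The count of 7 became 3 without the third m12_WD+VC library, 4 without the first m12_WD library and 11 without the second. The w12_WD means leave out the third library of that group, which held 607 counts.

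The gene lists for liver function gave 0 called members in edgeR among 514 tested members of 40 lists, 0 in DESeq2 and 7 in limma-voom, all lower in m12_WD+VC. At an unadjusted p under 0.05, 6 members were higher and 77 lower in edgeR, and 417 of the 514 had a log2 fold change below 0, beside 52.6% of all tested entries. Of 34 lists with at least 3 tested members, 33 had a median log2 fold change below 0. Of the tested members, 367 have no overlap with an opposite-strand gene, and of all protein-coding entries of that class 63.5% were below 0, beside 86.1% of those 367. Of the 143 members with an overlap, 99 were below 0, beside 46.4% of all protein-coding entries of that class. The same lists had 29 medians above 0 and 5 below for VC on control diet at 12 months. There the classes moved too: the median log2 fold change of m12_CD+VC over m12_CD was 0.49 over all entries without an overlap and -0.40 over those with one. Entries without an overlap took 22.4% to 31.6% of counts in the m12_CD+VC libraries and 11.4% to 18.2% in the m12_CD libraries, and the part of this shift in the list medians was not tested. On Western diet at 12 months, 132 members were lower and 10 higher at an unadjusted p under 0.05 without the third m12_WD library, beside 317 lower and 319 higher of 4576 entries tested. Without the third m12_WD+VC library 32 members were lower and 9 higher, beside 86 and 167 of 4668 entries. That library had the lowest sums of its group in the ribosomal, fatty acid oxidation and hepatocyte lists. Most counts of single lists below are not given without it. The lists were written with earlier results of these data known, and their medians are descriptions.

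**Figure D3:**
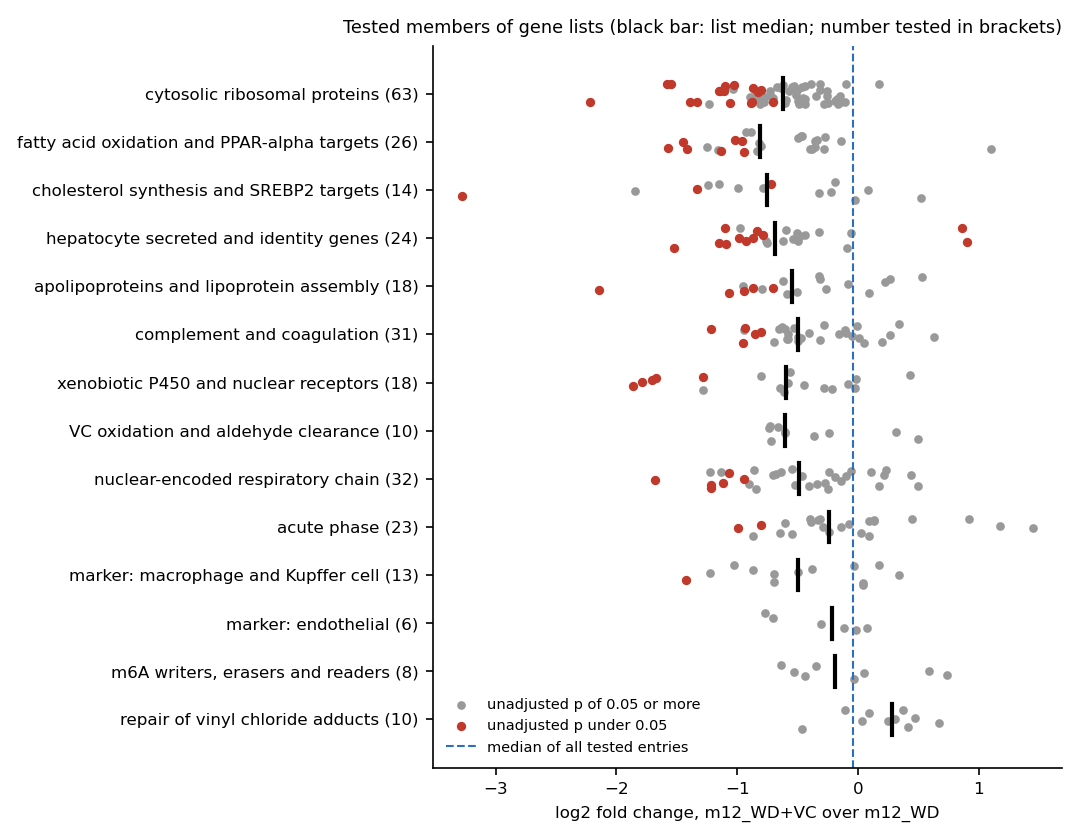
Log2 fold change (m12_WD+VC over m12_WD) of each tested member of 14 lists, with the list median as a black bar, members with an unadjusted p under 0.05 in red, and the median of all tested entries (-0.04) as a dashed line. Of the 63 ribosomal protein genes 62 lie below 0, while 8 of the 10 repair genes lie above it.

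Cytosolic ribosomal protein genes had the longest list, with 63 tested of 68. Of these, 17 were lower and 0 higher at an unadjusted p under 0.05, beside 4.84% and 6.19% of all tested entries. In 62 the log2 fold change was below 0, and the median was -0.62. Their summed level was 5846, 7481 and 4963 CPM in m12_WD+VC and 8736, 10930 and 8784 CPM in m12_WD. The sums did not overlap between the groups. The same held for fatty acid oxidation, cholesterol, stellate, and tumour and fetal liver genes, and for no other of the 40 lists. Of all single tested entries, 18.0% had groups that did not overlap, so separate sums in so few lists are descriptions only. Rps7, of the small subunit, had 42.4, 95.2 and 56.5 CPM in m12_WD+VC and 163, 194 and 102 CPM in m12_WD (log2 fold change -1.10, adjusted p = 0.218). Rpl3, of the large subunit, had 21.2, 39.0 and 23.1 CPM in m12_WD+VC and 92.5, 130 and 56.1 CPM in m12_WD (log2 fold change -1.58, adjusted p = 0.221). Rps4x had 21.2, 17.2 and 10.3 CPM in m12_WD+VC and 57.4, 160 and 19.7 CPM in m12_WD (log2 fold change -2.21, adjusted p = 0.173). Ribosomal protein genes have many processed pseudogenes, between which reads can be split. Without the first m12_WD+VC library 14 members were lower at an unadjusted p under 0.05 and the median was -0.65, and without the third m12_WD library these values were 25 and -0.76. The list is not given without the third m12_WD+VC library, where lower members over all lists fell from 77 to 32.

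Fatty acid oxidation genes and targets of PPAR-alpha had 26 tested of 33, with 7 lower and 0 higher at an unadjusted p under 0.05, 25 below 0 and a median of -0.81 (10 lower and -0.88 without the third m12_WD library). Their summed level was 2085, 2563 and 1717 CPM in m12_WD+VC and 3962, 4325 and 2764 CPM in m12_WD. The highest exposed library was below the lowest m12_WD library, which was the third. Ehhadh had 35.4, 71.8 and 28.2 CPM in m12_WD+VC and 157, 160 and 79.0 CPM in m12_WD (log2 fold change -1.41, adjusted p = 0.195). Decr1, which reduces double bonds of unsaturated fatty acids, had 7.07, 35.9 and 10.3 CPM in m12_WD+VC and 72.2, 63.9 and 55.1 CPM in m12_WD (log2 fold change -1.57, adjusted p = 0.218). Acadm, which dehydrogenates medium-chain fatty acids in mitochondria, had 42.4, 65.5 and 33.4 CPM in m12_WD+VC and 131, 123 and 76.9 CPM in m12_WD (log2 fold change -1.13, adjusted p = 0.298). In each of these 3 genes the groups did not overlap, though the test was not passed. Over all tested entries the groups did not overlap in 18.0%. These 3 had the smallest p of the list. Genes named from the other lists were mostly taken from the 3 with the smallest p, though not always the first of them, which favours separate groups. The list's median was 1.29 for VC on control diet at 12 months and 0.74 for VC on Western diet at the end of exposure. In the interaction with diet, 15 of the 26 were called lower and 0 higher, beside 5.79% of all tested entries lower, and the count was 17 with RLE factors, 14 in DESeq2 and 6 with factors from entries without an overlap.

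Other lipid pathways had medians below 0 as well. Cholesterol synthesis and SREBP2 targets had 14 tested of 25, with 3 lower and 0 higher at an unadjusted p under 0.05 and a median of -0.75, or 2 lower without the first m12_WD+VC library. Their sums were 1485, 1721 and 1760 CPM in m12_WD+VC and 1969, 2323 and 2193 CPM in m12_WD, and did not overlap, beside 18.0% of single tested entries with separate groups. Ebp, a sterol isomerase, had 21.2, 32.8 and 10.3 CPM in m12_WD+VC and 38.9, 58.9 and 73.8 CPM in m12_WD (log2 fold change -1.33, adjusted p = 0.29). Apolipoproteins and lipoprotein assembly had 18 tested of 19, with 5 lower and 0 higher and a median of -0.54, or 8 lower, 1 higher and -0.78 without the third m12_WD library. Apoa2, a protein of HDL, had 961, 1272 and 783 CPM in m12_WD+VC and 1984, 2247 and 1767 CPM in m12_WD (log2 fold change -0.94, adjusted p = 0.252). Apoc1, which inhibits lipid transfer and uptake, had 771, 1028 and 713 CPM in m12_WD+VC and 1826, 2328 and 1329 CPM in m12_WD (log2 fold change -1.07, adjusted p = 0.287). Both had separate groups. Fatty acid and triglyceride synthesis had 20 tested of 25, with 0 at an unadjusted p under 0.05 in either direction and a median of -0.50, or 3 lower and -0.57 without the third m12_WD library. Fasn, the fatty acid synthase, had 28.3, 51.5 and 41.1 CPM in m12_WD+VC and 35.2, 196 and 60.3 CPM in m12_WD, which overlapped (log2 fold change -1.06, adjusted p = 0.558).

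Hepatocyte secreted and identity genes had 24 tested of 26, with 9 lower and 2 higher at an unadjusted p under 0.05 and a median of -0.68. Their summed level was 12920, 14290 and 8304 CPM in m12_WD+VC and 25280, 26570 and 12590 CPM in m12_WD. The third m12_WD library was the low one of its group and lay within the exposed range. Without it 12 members were lower and 2 higher at an unadjusted p under 0.05, and the median was -0.97. Alb had a log2 fold change of -1.10 (adjusted p = 0.265). Serpina1a, an antitrypsin gene, had 70.7, 101 and 56.5 CPM in m12_WD+VC and 274, 307 and 120 CPM in m12_WD (log2 fold change -1.53, adjusted p = 0.17), and it belongs to a cluster of near-identical genes that can share reads. Cebpa, a transcription factor of hepatocytes, was on the other side and had 368, 466 and 452 CPM in m12_WD+VC and 222, 319 and 203 CPM in m12_WD (log2 fold change 0.87, adjusted p = 0.195), and its exons overlap Gm45091. In bulk liver, fewer cells of a type and less RNA per cell cannot be told apart.

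**Figure D4:**
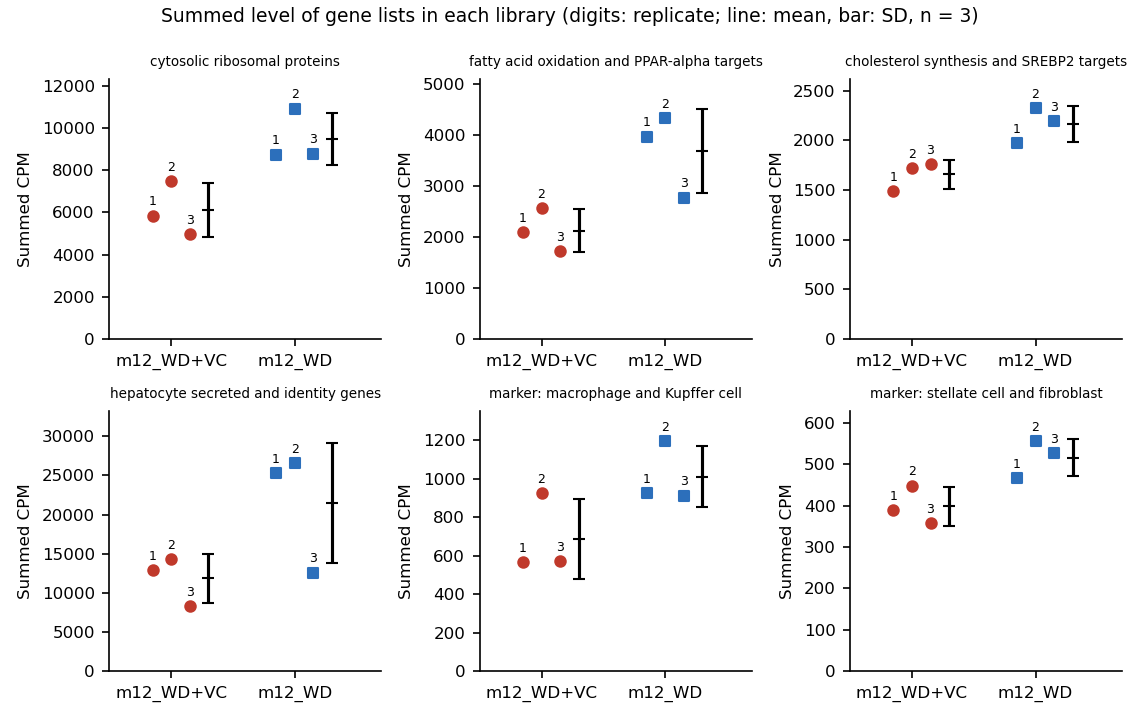
Summed CPM of all members of 6 lists in each m12_WD+VC library (circles) and each m12_WD library (squares), with the replicate number above each point and the mean and SD (n = 3) beside each group. The groups are apart for ribosomal, fatty acid oxidation, cholesterol and stellate genes, and of the other lists among the 40 only for tumour and fetal liver genes. Of all single tested entries, 18.0% had groups apart. In the hepatocyte panel the third m12_WD library, at 12590 CPM, lies among the exposed libraries.

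Genes for other secreted plasma proteins also had medians below 0. At an unadjusted p under 0.05, 4.84% of all tested entries were lower and 6.19% higher. Complement and coagulation had 31 tested of 36, with 5 lower and 0 higher at an unadjusted p under 0.05 and a median of -0.50. Without the third m12_WD library 12 were lower and 0 higher, with a median of -0.66. F10, coagulation factor X, had 113, 154 and 77.0 CPM in m12_WD+VC and 229, 246 and 217 CPM in m12_WD (log2 fold change -0.95, adjusted p = 0.218). The acute phase list had 23 tested of 25, with 2 lower and 0 higher and a median of -0.24, which ran from -0.71 to 0.25 with 1 library left out. Without the first m12_WD+VC library 5 members were lower. Saa2, serum amyloid A, had 1280, 116 and 46.2 CPM in m12_WD+VC and 79.6, 371 and 89.3 CPM in m12_WD. One exposed library was far above all others, and without it the log2 fold change of 1.45 became -1.04. Hp, haptoglobin, had 2029, 2167 and 1298 CPM in m12_WD+VC and 3210, 3868 and 2798 CPM in m12_WD (log2 fold change -0.80, adjusted p = 0.397), with separate groups.

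The genes that metabolise VC itself gave 0 members past an unadjusted p of 0.05 with all libraries, and 2 lower without the third m12_WD library. Of all tested entries 4.84% were lower at that p with all libraries. The list of VC oxidation and aldehyde clearance had all 10 members tested, 8 below 0 and a median of -0.60, or -0.77 without that library. Cyp2e1 had 1350, 1228 and 847 CPM in m12_WD+VC and 2215, 2016 and 1131 CPM in m12_WD, which overlapped through the third m12_WD library (log2 fold change -0.60, SE 0.43, adjusted p = 0.591). Adh1, an alcohol dehydrogenase, had 269, 374 and 208 CPM in m12_WD+VC and 463, 518 and 475 CPM in m12_WD (log2 fold change -0.72, adjusted p = 0.467). Glutathione synthesis and transfer had 12 tested of 23, with 1 lower and 0 higher at an unadjusted p under 0.05 and a median of -0.68, or 3 lower and -0.96 without the third m12_WD library and 0 lower without the first m12_WD+VC library. Xenobiotic P450 genes and their nuclear receptors had 18 tested of 28, with 5 lower and 0 higher and a median of -0.60. Cyp3a11, a target of PXR, had 91.9, 226 and 87.2 CPM in m12_WD+VC and 335, 422 and 295 CPM in m12_WD (log2 fold change -1.28, adjusted p = 0.237). Its groups were separate, and it belongs to a gene family of similar sequences.

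Genes that repair VC adducts were the one list of 34 with a median above 0. Only 3 of its tested members have no opposite-strand overlap. Over all tested entries the median was 0.08 with an overlap and -0.20 without, and the part of this in the list median was not tested. Of 21 members, 10 were tested, 8 were above 0, 0 passed an unadjusted p of 0.05, and the median was 0.28, or 1 higher and 0.36 without the third m12_WD library. Ercc1, of nucleotide excision repair, had 205, 134 and 105 CPM in m12_WD+VC and 90.7, 93.3 and 133 CPM in m12_WD (log2 fold change 0.47, adjusted p = 0.618), and was at -0.01 when its counts were summed with those of its opposite-strand partner. Xrcc1, the scaffold of base excision repair, had 28.3, 29.6 and 20.5 CPM in m12_WD+VC and 5.55, 12.3 and 29.1 CPM in m12_WD (log2 fold change 0.68, adjusted p = 0.716). Both overlapped between groups. The list's sums were 575 to 792 CPM in m12_WD+VC and 486 to 710 CPM in m12_WD.

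The study's title names tumour potential and the epitranscriptome, and the lists for these were thinly measured. Of 29 hepatocellular tumour and fetal liver genes, 5 were tested, with 0 at an unadjusted p under 0.05 and a median of -0.58. Their sums were 247, 382 and 346 CPM in m12_WD+VC and 390, 484 and 511 CPM in m12_WD. Afp, the fetal albumin-like protein, had 70.7, 71.8 and 69.3 CPM in m12_WD+VC and 57.4, 34.4 and 88.3 CPM in m12_WD (log2 fold change 0.23, adjusted p = 0.892). Spp1, osteopontin, had 42.4, 64.0 and 84.7 CPM in m12_WD+VC and 61.1, 199 and 134 CPM in m12_WD (log2 fold change -0.91, adjusted p = 0.455). Gpc3, glypican 3, had 0 counts in all 6 libraries, and Mki67, a proliferation marker, had 0, 2 and 2 counts in m12_WD+VC and 1, 1 and 3 in m12_WD, so neither was measurable at this depth. Of the cell cycle list 4 of 27 members were tested, and of the p53 list 1 of 22, Gadd45a (log2 fold change 0.82, adjusted p = 0.522).

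Of 24 genes that write, erase or read m6A, the methyl mark on RNA adenosines, 8 were tested, 0 passed an unadjusted p of 0.05, and the median was -0.19, or 1 higher and -0.04 without the third m12_WD library. Mettl3, the catalytic subunit of the writer, had 113, 116 and 149 CPM in m12_WD+VC and 152, 174 and 176 CPM in m12_WD (log2 fold change -0.34, SE 0.29, adjusted p = 0.655). Its groups were narrowly apart, but its exons overlap Tox4, and it was at 0.15 with the overlapping counts summed. Alkbh5, an eraser, had 21.2, 23.4 and 12.8 CPM in m12_WD+VC and 5.55, 9.82 and 17.7 CPM in m12_WD (log2 fold change 0.73, adjusted p = 0.67). Zc3h13, of the writer complex, had 106, 79.6 and 56.5 CPM in m12_WD+VC and 46.3, 41.8 and 68.6 CPM in m12_WD (log2 fold change 0.59, adjusted p = 0.55). Ythdc1, a nuclear reader, had 28.3, 54.6 and 38.5 CPM in m12_WD+VC and 37.0, 61.4 and 104 CPM in m12_WD (log2 fold change -0.64, adjusted p = 0.56). The last 3 overlapped between groups.

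Markers of other liver cells were read for the same libraries. The macrophage and Kupffer cell list had 13 tested of 24 and none at 0, with 1 lower and 0 higher at an unadjusted p under 0.05 and a median of -0.50, or 2 lower without the third m12_WD library and 0 without the first m12_WD+VC library. Its sums were 566, 925 and 570 CPM in m12_WD+VC and 925, 1194 and 910 CPM in m12_WD, which overlapped. Of the 13, 9 were below 0 and 4 above, and of all tested entries 4.84% were lower at an unadjusted p under 0.05. Lyz2, lysozyme, had 21.2, 88.9 and 20.5 CPM in m12_WD+VC and 124, 253 and 32.2 CPM in m12_WD (log2 fold change -1.42, adjusted p = 0.386). It had the lowest log2 fold change of the 13, and its groups overlapped. Stellate cell and fibroblast markers had 6 tested of 19, with sums of 389, 448 and 357 CPM in m12_WD+VC and 466, 555 and 527 CPM in m12_WD. These sums did not overlap, and neither did the groups in 18.0% of all single tested entries. Endothelial markers had 6 tested of 16 and sums of 708 to 819 CPM in m12_WD+VC and 720 to 934 CPM in m12_WD. Antigen presentation genes had 7 tested of 11, all below 0, and sums of 891 to 1454 CPM in m12_WD+VC and 1364 to 1928 CPM in m12_WD. The part of these shifts in the results above was not tested.

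Markers of the remaining cell types had few counts. The neutrophil list had 0 tested of 12, with Retnlg and Mmp8 at 0, and sums of 12.8 to 28.1 CPM in m12_WD+VC and 11.1 to 53 CPM in m12_WD. The T, B and NK cell list had 1 tested of 22, with 7 at 0 (Cd3d, Cd8a, Nkg7, Gzma, Gzmb, Klrb1c and Ncr1), and sums of 18 to 64 CPM in m12_WD+VC and 3.70 to 29.5 CPM in m12_WD. Its tested member, the T-cell kinase Zap70, had 21.2, 17.2 and 5.13 CPM in m12_WD+VC and 0, 7.37 and 0 CPM in m12_WD (adjusted p = 0.177). In the erythroid and platelet list 6 of 10 were at 0, and its sums were 17.2 to 53.9 CPM in m12_WD+VC and 7.37 to 35.2 CPM in m12_WD. In the adipose, muscle and pancreas list 11 of 16 were at 0, with sums of 99 to 159 CPM in m12_WD+VC and 146 to 202 CPM in m12_WD. In the cholangiocyte list Cftr was at 0 and 1 of 11 was tested, with sums of 56.6 to 116 CPM in m12_WD+VC and 99.9 to 243 CPM in m12_WD.

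The 3 VC comparisons that share no library gave different list medians. The medians of the hepatocyte list were -0.68 on Western diet at 12 months, 1.22 on control diet at 12 months and 0.35 on Western diet at the end of exposure. Those of the ribosomal list were -0.62 on Western diet at 12 months, 0.74 on control diet at 12 months and 0.35 on Western diet at the end of exposure. In the interaction with diet, 14 of the 63 ribosomal genes were called lower and 0 higher, and 13 of the 24 hepatocyte genes lower and 2 higher, beside 5.79% of all tested entries lower and 4.95% higher. With RLE factors these counts were 31 lower for the ribosomal list, and 18 lower and 0 higher for the hepatocyte list. With factors from entries without an overlap these counts were 3 lower for the ribosomal list, and 7 lower and 2 higher for the hepatocyte list. In the interaction with time, 0 members of either list were called.

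**Figure D5:**
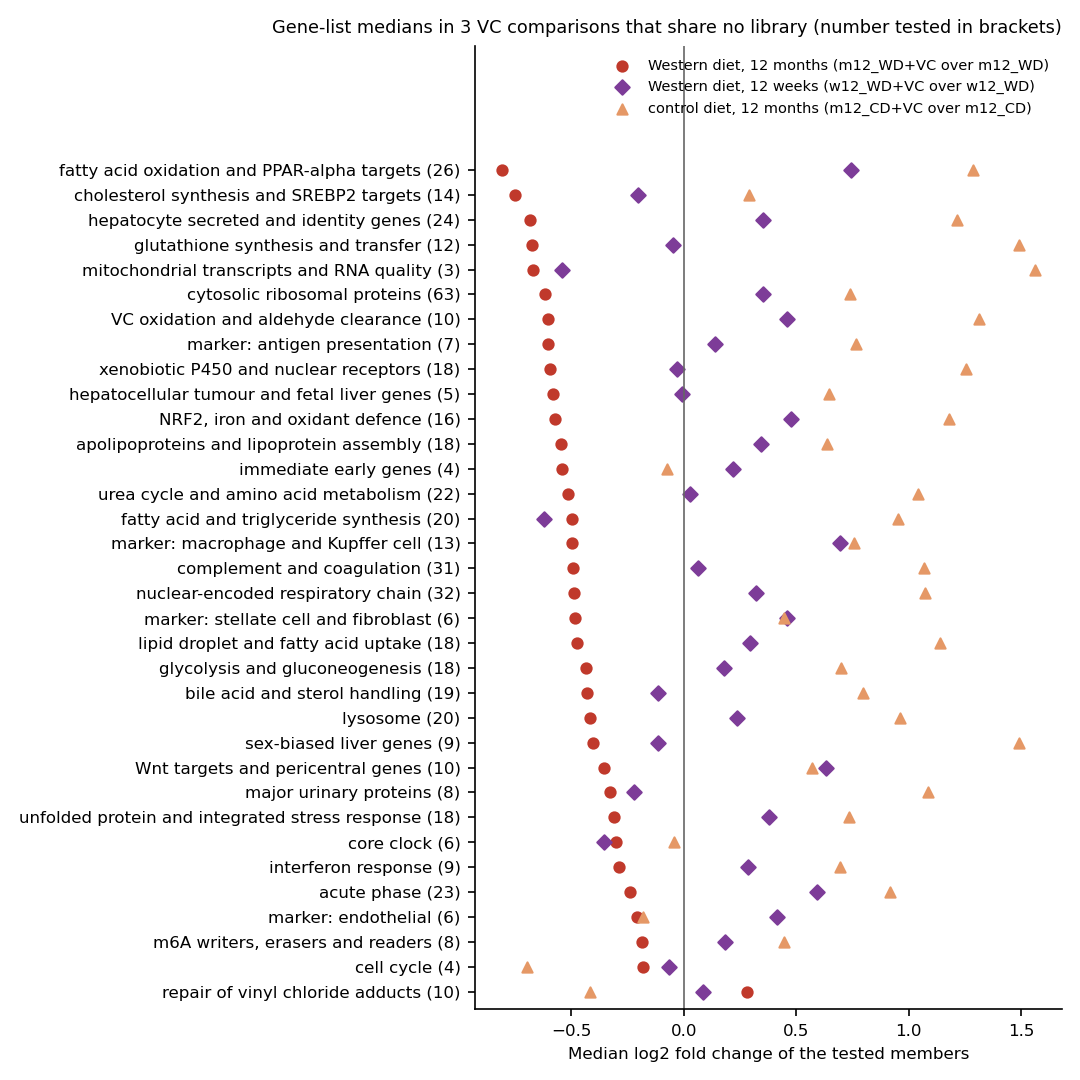
Median log2 fold change of the tested members of 34 lists in 3 comparisons of VC with air: Western diet at 12 months (circles), Western diet at 12 weeks (diamonds) and control diet at 12 months (triangles). On Western diet at 12 months the medians lie below 0 in 33 lists, and on control diet they lie above 0 in 29.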

How the data were processed

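Per the labels' protocols, liver RNA taken up in Trizol was cleaned with DNase and by removal of ribosomal RNA, and TruSeq v2 libraries were read on a HiSeq2500. The submitters' processing notes name the mm10 build, HTSeq 0.11.2, HISAT2 2.1.0 and Trimmomatic 0.38. For the annotation, strand setting and filters of the counting, nothing is given in the sources used here. The authors deposited raw counts for 24421 entries, of which 8880 were at 0 in all 24 libraries, and these counts were used in every test. The deposited log2 values per sample equal log2 of (count / size factor + 1), with 0 exceptions at a tolerance of 1e-06, and were not tested.

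The expression filter of edgeR left 4198 entries, whose counts were scaled with TMM, and fitted in 1 quasi-likelihood model of the 8 groups over 24 libraries (edgeR 4.0.16, R 4.3.3, common biological coefficient of variation 0.317). Adjustment was by Benjamini-Hochberg with a threshold of 0.05. Interactions came from the same fit. CPM is a count scaled to a library total of 1e6. A ratio against 1 to 3 counts has a 95% interval, and against 0 counts the lower end of that interval is given. Entries were placed on GENCODE M21 (GRCm38), 23334 of them by symbol and 631 through a synonym in RefSeq. Opposite-strand exon overlap was taken with bedtools 2.31.1, giving 5789 entries with an overlap, 18176 without and 456 not placed. Alternatives were RLE scaling, no filter, DESeq2 1.42.0, limma-voom (limma 3.58.1) with quality weights, scaling on or fitting of entries without an overlap, other sets of libraries, a replicate block, each library left out, and overlapping entries summed, which was chosen after seeing the data.

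Named genes were up to 12 called entries a direction with the largest change, at least 10 counts and groups that do not overlap, up to 6 predicted or antisense entries a direction (the other called ones were named after their values were seen), up to 3 members of each list by smallest p, and a fixed set including Cyp2e1, Alb, Mettl3, Afp, Gpc3 and Mki67. For the interactions they were up to 5 called entries a direction by smallest p. Some genes that these rules name are not reported here. The comparison, the genes and the 40 lists were chosen with earlier results of these data known.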

Additional observations from a re-analysis of the deposited data

Results flagged for a closer look

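The difference between the VC effect on Western diet and that on control diet at 12 months was tested as an interaction, and 451 entries passed an adjusted p of 0.05 in edgeR's quasi-likelihood test. The named entries higher in it were Zfp668 (log2 difference 5.62), Zfhx2os (2.90), Kmt2d (2.65), Lrfn4 (2.66), Spatc1l (2.04), Mfsd4 (1.96) and Msmp (1.82). Spatc1l averaged 270 ± 38.7 CPM in m12_WD+VC and 157 ± 35 CPM in m12_WD, against 284 ± 23.4 CPM in m12_CD+VC and 465 ± 75.8 CPM in m12_CD (SD, n = 3 each). The named entries lower in it were Ehhadh (-3.88), Entpd5 (-3.65), Aldh1a1 (-3.19) and Actb (-2.81). Aldh1a1, a retinal and aldehyde dehydrogenase, averaged 117 ± 22.7 CPM in m12_WD+VC and 191 ± 94.6 CPM in m12_WD, against 259 ± 135 CPM in m12_CD+VC and 29.4 ± 22.6 CPM in m12_CD. Entpd5, a nucleotidase of the endoplasmic reticulum, averaged 19 CPM in m12_WD+VC and 59.0 CPM in m12_WD, against 57.4 CPM in m12_CD+VC and 8.71 CPM in m12_CD.

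The difference between the VC effect on Western diet at 12 months and that at the end of exposure was tested in the same way, and 7 entries passed. The log2 differences were 5.47 for Zfp668, 3.33 for Zfhx2os, 3.13 for Hcn3, 2.58 for 1700034P13Rik, 2.57 for 4932416H05Rik, 2.54 for Gpr108 and 1.95 for Mfsd4. Gpr108 averaged 119 ± 20.7 CPM in m12_WD+VC and 44.0 ± 8.44 CPM in m12_WD, against 130 ± 68.1 CPM in w12_WD+VC (n = 3 each) and 289 ± 54.6 CPM in w12_WD (n = 2).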

How the results depend on the processing

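The 24 calls became 13 in DESeq2, 9 when entries without an overlap were fitted alone, 10 with the 12-month libraries alone and 11 with the 6 libraries alone, and ran from 10 to 24 with 1 library left out. The libraries of the other groups were not left out in turn. Limma-voom called 35, with 20 higher and 15 lower. The 451 calls of the interaction with diet became 232 with no expression filter, 239 in DESeq2 and 125 among entries without an overlap alone, and ran from 87 to 627 with 1 library left out. The 7 calls of the interaction with time became 4 with RLE scaling, 18 with no filter, 3 in DESeq2, 19 in limma-voom, 4 with scaling on entries without an overlap and 0 in edgeR among those 2026 entries alone (183 at an unadjusted p under 0.05), and ran from 3 to 11 with 1 library left out. In each case the cause was not tested, apart from fewer libraries or entries where an alternative leaves some out. With the replicate number as a block the calls were 26, 470 and 8, and 23 of the 24 were shared. Same-numbered libraries had correlations of deviations of 0.077, 0.086 and 0.144, each library's highest being with its own number. Deviations within a group sum to 0, so these correlations depend on each other. How often unrelated libraries would match in this way was not tested, and the labels give the numbers no meaning.

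Of 1698 values of named genes under alternatives, 1522 kept direction and side of the threshold, 161 lost the call, 11 gained one and 4 reversed: Ercc1 (-0.015) and Mettl3 (0.15) with overlapping entries summed, Afp (-0.0467 to 0.642 with 1 library left out), lowest without the second m12_WD library, and Saa2 (-1.04 to 2.43), lowest without the first m12_WD+VC library. Of 572 list medians under alternatives, 12 had the other sign. The difference in the share of counts without an overlap ran from -6.96 to -3.10 percentage points with 1 library left out. At these depths, entries under about 21.2 CPM can be missed in the shallowest library.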

Other observations

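Genes of nitrogen, energy and lysosome metabolism had medians below 0. Of all tested entries, 4.84% were lower and 6.19% higher at an unadjusted p under 0.05. Urea cycle and amino acid genes had 22 tested of 25, with 4 lower and 1 higher at an unadjusted p under 0.05 and a median of -0.52, or 9 lower, 0 higher and -0.71 without the third m12_WD library. The higher one was Nags, which makes the activator of the urea cycle's entry enzyme, with 177, 119 and 139 CPM in m12_WD+VC and 92.5, 95.8 and 55.1 CPM in m12_WD (log2 fold change 0.88, adjusted p = 0.271, edgeR, and 0.65, adjusted p = 0.409, without that library), and it has an opposite-strand overlap. Glycolysis and gluconeogenesis genes had 18 tested of 24, with 3 lower and 0 higher and a median of -0.43, or 1 lower without the first m12_WD+VC library. Fbp1, fructose bisphosphatase, had 35.4, 103 and 77.0 CPM in m12_WD+VC and 163, 206 and 143 CPM in m12_WD (log2 fold change -1.09, adjusted p = 0.326), and the groups did not overlap. Nuclear-encoded respiratory chain genes had 32 tested of 46, with 6 lower and 0 higher and a median of -0.49, or 3 lower without the first m12_WD+VC library. Lysosome genes had 20 tested of 27, with 2 lower and 0 higher, and Lipa, the acid lipase, had 21.2, 9.36 and 12.8 CPM in m12_WD+VC and 61.1, 83.5 and 13.5 CPM in m12_WD (log2 fold change -1.90, adjusted p = 0.227), where the third m12_WD library lay among the exposed ones.

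Of the core clock genes 6 of 19 were tested, and 1 was higher at an unadjusted p under 0.05. It was Per2, a repressor of the clock, with 120, 20.3 and 69.3 CPM in m12_WD+VC and 22.2, 34.4 and 7.27 CPM in m12_WD (log2 fold change 1.71, adjusted p = 0.17). Its groups overlapped.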
